A study of Bos taurus with 8 samples.

Results

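The SOX genes encode transcription factors that bind DNA through a high mobility group box, and 10 of them (SOX4, SOX5, SOX6, SOX7, SOX8, SOX9, SOX10, SOX11, SOX17 and SOX18) were examined here for DNA methylation in bovine dermal fibroblasts. All windows that carry the symbol of a member in the deposited counts were taken, together with 2 windows on each side of the gene. For 8 of the 10 genes windows were held under that symbol, and SOX9 and SOX11 were not analysed here. The 8 genes were 8 of 26107 gene symbols. They covered 334 gene windows and 32 flanking windows, that is 366 of 902984 windows of 3Kb, and 317 of the gene windows lay in the long genes SOX5 and SOX6. The other 6 genes shared 17 windows. The rule that chose the members used gene names only, but it was set with earlier results of these data known.

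Dermal fibroblast cultures were established from skin biopsies of the shoulder of female Holstein (a dairy breed) and Angus (a beef breed) cattle of nearly the same age, cryopreserved, and revived in parallel. Genomic DNA came from 4 Holstein and 4 Angus cultures at passage 5, each from a different animal and with no LPS or other treatment, and each gave 1 library. They are called Holstein 1 to 4 and Angus 1 to 4. The libraries hold DNA only, so the labelled cell type could not be set beside the expression of fibroblast markers. Each breed is represented by 4 animals whose cells had been expanded in culture, and what skin cells had held before culture was not measured. MIRA-Seq, the methylated CpG island recovery assay, captures sonicated DNA fragments with methyl-CpG binding proteins, so a window with more methylated CpG gives more reads. A window with few CpG sites gives few reads whether or not they are methylated, and no input library was used here to tell these apart.

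SOX proteins are grouped by sequence. The SoxC gene SOX4 acts in progenitor cells and in developing neurons. The SoxD genes SOX5 and SOX6 encode long coiled-coil forms that work with SOX9 in cartilage. The SoxE genes SOX8 and SOX10 act in the neural crest, and SOX10 is needed for melanocytes and peripheral glia. The SoxF genes SOX7, SOX17 and SOX18 act in the endothelium of blood and lymph vessels, and SOX18 also in hair follicles. Many developmental regulators of this kind have CpG islands at their start that lack methylation in most tissues, whereas the bodies of genes are often methylated.

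The libraries held 18691111 to 35525554 reads in windows, and the counts were scaled to CPM on these totals. With such totals 3 reads in a window, the count treated here as the detection floor, were worth 0.0844 to 0.161 CPM, a floor for counting error alone, given that PCR copies of a fragment are counted as separate reads. Holstein 1 and Angus 3 stood apart from the rest. The median window on placed chromosomes was 0.152 and 0.168 CPM in these, against 0.214 to 0.390 CPM in the other 6 libraries, and their share of reads on placed chromosomes was 79.9 and 73.8% against 83.9 to 89.3%. The order of the levels and the values of SOX18 are therefore also given without them.

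The SoxE gene SOX8 had the highest MIRA-Seq level of the 8 genes, and SOX4, SOX6 and SOX5 had the lowest. Levels are given as CPM per kb of gene windows, so that genes of different length can be set side by side. SOX8 had 1.02 ± 0.178 CPM per kb (SD, n = 8), which was 5.59 times the level of the median gene (0.182 CPM per kb) and lay at percentile 94.0 of 24587 genes on placed chromosomes. SOX4 had 0.0370 ± 0.0339 CPM per kb, 0.203 times the median gene, at percentile 3.40. The order of the means was SOX8, SOX18, SOX10, SOX7, SOX17, SOX5, SOX6 and SOX4, and it was the same without Holstein 1 and Angus 3.

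**Figure D1:**
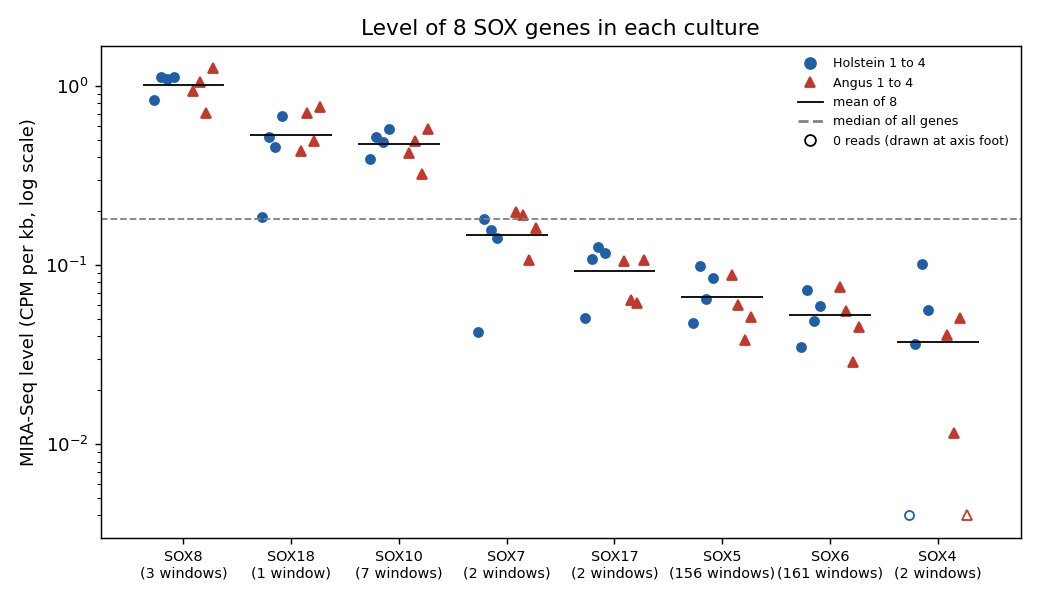
MIRA-Seq level of each SOX gene on a log axis of CPM per kb, with a point for each of 4 Holstein (circles) and 4 Angus (triangles) cultures and a line at the mean of 8. SOX8, SOX18 and SOX10 lie above the median of all genes (dashed, 0.182 CPM per kb), and the symbols of both breeds are mixed in every gene.

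SOX8, a factor of neural crest and gonad, lies on chromosome 25 (UMD v3.1, 784801 to 793800, plus strand, 3 windows). Its levels were 0.837, 1.13, 1.09 and 1.12 CPM per kb across Holstein 1 to 4 and 0.939, 1.05, 0.705 and 1.25 CPM per kb in Angus 1 to 4, from 149 to 359 reads per library. The breeds overlapped, and the lowest culture of each breed was Holstein 1 and Angus 3. Per kb, every culture had more signal over SOX8 than over any other member, and SOX8 was 1.92 times as high as the next gene, SOX18, in the means.

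SOX10, the other SoxE gene, lies on chromosome 5 (110260306 to 110281305, minus strand, 7 windows). Levels in Holstein 1 to 4 were 0.390, 0.521, 0.488 and 0.575 CPM per kb, and in Angus 1 to 4 they were 0.421, 0.492, 0.323 and 0.573 CPM per kb, with a mean of 0.473 ± 0.0890 (SD, n = 8; percentile 79.0). SOX8 was higher than SOX10 in 8 of 8 cultures, by 2.15 times in the means, and the ranges of these genes did not overlap.

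Of the SoxF genes, SOX18 was well above SOX7 and SOX17. SOX18, the regulator of lymphatic vessel development, is a compact gene that filled 1 window (chromosome 13, 54294797 to 54297796, plus strand). It had 0.185, 0.519, 0.454 and 0.676 CPM per kb across Holstein 1 to 4 and 0.431, 0.707, 0.493 and 0.767 CPM per kb in Angus 1 to 4. The mean was 0.529 ± 0.187 (SD, n = 8; percentile 81.9), and the lowest value was that of Holstein 1, with 11 reads against 36 to 72 in the other libraries. SOX18 was higher than SOX10 in 5 of 8 cultures, so these neighbours in the order did not differ beyond the spread.

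SOX7, which acts early in endothelial cells, lies on chromosome 8 (8400587 to 8406586, plus strand, 2 windows). Its values were 0.0421, 0.180, 0.158 and 0.141 CPM per kb in Holstein 1 to 4, and 0.198, 0.191, 0.106 and 0.161 CPM per kb in Angus 1 to 4 (mean 0.147 ± 0.0516, SD, n = 8; percentile 42.9). SOX7 was lower than SOX18 and than SOX10 in 8 of 8 cultures. SOX7 was close to the median gene in its mean, and Holstein 1, with 5 reads in the whole gene, was far below the other cultures.

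SOX17, an endoderm and arterial factor, lies on chromosome 14 (23882047 to 23888046, plus strand, 2 windows). It had 0.0506, 0.108, 0.126 and 0.117 CPM per kb across Holstein 1 to 4 and 0.105, 0.0637, 0.0616 and 0.107 CPM per kb in Angus 1 to 4, from 6 to 25 reads (mean 0.0924 ± 0.0290, SD, n = 8; percentile 24.7). SOX7 was higher than SOX17 in 7 of 8 cultures.

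SOX5 lies on chromosome 5 (86568706 to 87036705, plus strand, 156 windows). Its levels were 0.0477, 0.0988, 0.0646 and 0.0850 CPM per kb across Holstein 1 to 4 and 0.0876, 0.0602, 0.0382 and 0.0512 CPM per kb in Angus 1 to 4, from 441 to 1414 reads. The mean of 0.0667 ± 0.0216 (SD, n = 8) lay at percentile 12.9 of all genes and at percentile 13.2 of the 438 genes with at least 100 windows, whose median was 0.119. Thus SOX5 was low among genes of its own length as well. It was below SOX17 in 8 of 8 cultures.

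SOX6, its SoxD partner, lies on chromosome 15 (36599457 to 37082456, plus strand, 161 windows). It had 0.0349, 0.0728, 0.0488 and 0.0594 CPM per kb across Holstein 1 to 4 and 0.0753, 0.0554, 0.0289 and 0.0453 CPM per kb in Angus 1 to 4, from 333 to 1042 reads (mean 0.0526 ± 0.0166, SD, n = 8). This placed SOX6 at percentile 2.51 of the genes with at least 100 windows. SOX6 was lower than SOX5 in 8 of 8 cultures, by 1.27 times in the means. The ranges over cultures overlapped, and Holstein 1 and Angus 3 were the lowest cultures in both genes.

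SOX4 lies on chromosome 23 (36289593 to 36295592, minus strand, 2 windows). Holstein 1 and Angus 4 had 0 reads in the gene, and the other libraries had 2 to 16 reads. The level was 0, 0.0361, 0.101 and 0.0563 CPM per kb across Holstein 1 to 4 and 0.0407, 0.0116, 0.0504 and 0 CPM per kb in Angus 1 to 4. SOX4 was lower than SOX6 in 6 of 8 cultures and these neighbours did not differ beyond the spread. With 0 reads, up to 3 reads in the gene could have gone undetected in those libraries.

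Among genes of at most 3 windows (10707 genes, median 0.185 CPM per kb), SOX8 lay at percentile 93.1, SOX18 at 80.7, SOX7 at 42.4, SOX17 at 26.6 and SOX4 at 6.31. Among 4559 genes of 5 to 9 windows SOX10 lay at percentile 73.6. The ranks of the short genes were thus much the same among genes of like length. The ratio of SOX8 to SOX6 varied between libraries, from 12.5 in Angus 1 to 27.7 in Angus 4, so the contrast between high and low windows was not of one size in these libraries.

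Within the short genes the reads were spread unevenly. In SOX8 the first window (784801 to 787800, coding exon 1) had 1.31, 2.47, 2.12 and 1.89 CPM across Holstein 1 to 4 and 1.36, 1.67, 1.28 and 1.66 CPM in Angus 1 to 4. The second window (787801 to 790800, coding exon 2) had 4.45, 5.11, 5.03 and 5.74 CPM in Holstein and 5.55, 5.60, 3.73 and 6.53 CPM in Angus. The third (790801 to 793800, coding exon 3) had a mean of 2.21 ± 0.611 CPM (SD, n = 8). The middle window was the highest of the gene in every culture. The surrounding windows of SOX8 also had high signal, at 2.17 ± 0.578 and 4.06 ± 0.982 CPM upstream and 3.00 ± 0.793 and 3.57 ± 0.718 CPM downstream, far above the median placed window of 0.285 CPM.

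SOX10 had its highest signal near its 3′ end, without a steady rise, since 4 of its 7 windows were below the first in their means. The first window (110278306 to 110281305, coding exon 1) had 0.759, 1.13, 1.44 and 1.27 CPM across Holstein 1 to 4 and 1.05, 1.04, 0.739 and 1.23 CPM in Angus 1 to 4. The sixth window (110263306 to 110266305, coding exon 2) had 3.74, 4.72, 4.62 and 5.66 CPM in Holstein and 3.63, 4.49, 2.52 and 6.31 CPM in Angus, and the seventh (coding exon 3) had 2.96 ± 0.584 CPM (SD, n = 8). Signal was therefore concentrated over the last coding exons, with the highest value of the gene in window 6 in 8 of 8 cultures. Between the ends, windows 3 and 4 held 7 and 2 reads over the 8 libraries. Only 2.50% of placed windows and 1.99% of placed gene windows held 7 reads or fewer, and no sequence of this build was used here to see whether reads could be placed in them. Without these windows SOX10 had 0.659 ± 0.124 CPM per kb (SD, n = 8) and was above SOX18 in 6 of 8 cultures, so the order of SOX10 and SOX18 in the means depends on them.

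**Figure D2:**
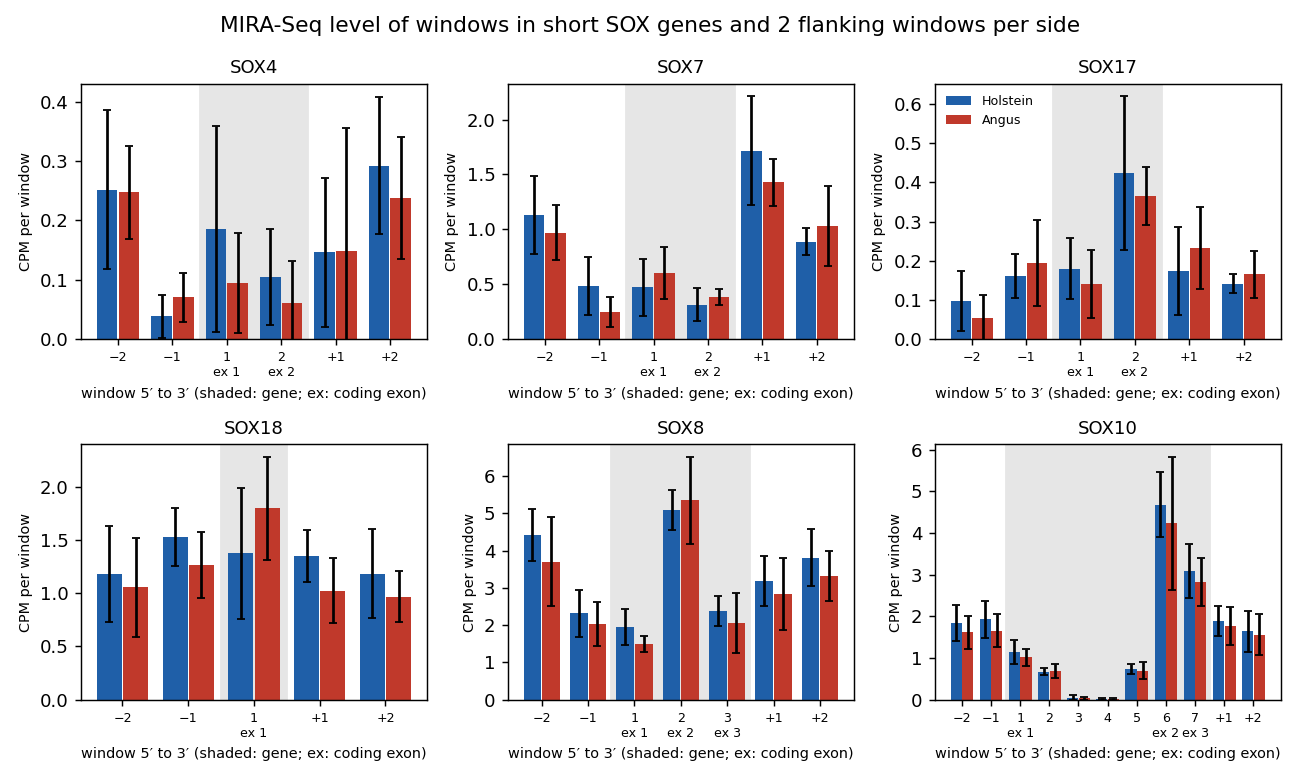
Mean CPM of each 3Kb window (bars, error bars SD of 4 cultures) in Holstein and Angus for 6 short SOX genes, from 5′ to 3′ on the strand of the gene, with 2 flanking windows per side (−2, −1, +1, +2) and gene windows shaded; each panel has its own axis. The peaks of SOX8 (window 2, 5.22 CPM) and SOX10 (window 6, 4.46 CPM) lie over coding exon 2, and SOX10 windows 3 and 4 are nearly empty.

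The SoxF genes had a different form from each other. SOX7 window 1 (8400587 to 8403586, coding exon 1) had 0.152, 0.779, 0.530 and 0.422 CPM across Holstein 1 to 4 and 0.838, 0.661, 0.269 and 0.642 CPM in Angus 1 to 4. SOX7 window 2 (coding exon 2) was lower in the mean, at 0.346 ± 0.116 CPM (SD, n = 8). In SOX17 it was the other way round, with 0.160 ± 0.0797 CPM in window 1 (23882047 to 23885046, coding exon 1) and 0.395 ± 0.141 CPM in window 2 (coding exon 2). SOX17 window 1 held 1 to 7 reads per library and window 2 held 3 to 22 reads. In SOX4 window 1 had 0.140 ± 0.136 CPM and window 2 had 0.0821 ± 0.0745 CPM, both near the value of 3 reads.

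For the comparison of the start of a gene with its body, the first window by strand was set against the mean of the other windows in the same culture. The first window was lower in 8 of 8 cultures in SOX8 (1.72 against 3.71 CPM, mean ratio 0.467 ± 0.0963, SD, n = 8), SOX10 (1.08 against 1.48 CPM, ratio 0.735 ± 0.113) and SOX6 (0.0389 against 0.159 CPM, ratio 0.228 ± 0.236). Against the median of the other windows the ratio was 1.56 in SOX10, 1.08 in SOX5 and 0.354 in SOX6, so in SOX5 the direction depends on the measure. In SOX10 that median counts windows 3 and 4, with 7 and 2 reads over the 8 libraries. The SOX10 ratio of medians without these near-empty windows is not given here, so no change of direction is read from it. SOX17 had a lower first window in 7 of 8 cultures and an equal one in Holstein 1. In SOX5 it was lower in 6 of 8 cultures (0.133 ± 0.0574 against 0.200 ± 0.0651 CPM), and SOX5 had 70 of its 156 windows below the first. SOX7 and SOX4 had the opposite direction in their means, and SOX7 had a higher first window in 6 of 8 cultures (ratio 1.60 ± 0.659), lower in 1 and equal in 1. In SOX4 the first window was higher in 5 cultures and lower in 1. SOX18 fills a single window and has no such comparison.

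Over 20082 genes with at least 2 windows, the first window was lower in the mean in 64.9%, and lower in 8 of 8 cultures in 42.1%, with a median ratio of 0.707. For genes of 2 or 3 windows the share with 8 of 8 was 34.4%, for 5 to 9 windows 47.4% and for at least 100 windows 38.8%. A low first window is thus common, and the 3 members with 8 of 8 cultures out of 7 are to be read beside those shares. A 3Kb window also holds more than a promoter, so an unmethylated start and a methylated first intron share 1 value.

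Reads at the 5′ ends of the long genes were too few for single windows to be read with confidence. The first window of SOX6 (36599457 to 36602456, coding exon 1) held 1, 1, 0 and 4 reads in the Holstein cultures and 2, 1, 0 and 0 reads across Angus 1 to 4. That of SOX5 (86568706 to 86571705, coding exon 1) held 0, 4, 3 and 6 reads in Holstein and 4, 4, 5 and 3 reads in Angus. Across all windows and cultures, 49.4% of the values in SOX5 and 56.3% of those in SOX6 were at 3 reads or fewer, and 10.9 and 14.8% were at 0. The profile along each gene rests on means over cultures for that reason.

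Most of SOX5 and SOX6 had little signal, with a few windows that stood out. The median window had 0.140 CPM in SOX5 and 0.132 CPM in SOX6, against 0.343 CPM for all gene windows on placed chromosomes. Mean CPM of single windows ran from 0.0141 to 0.944 in SOX5 and from 0.0112 to 0.657 in SOX6. Windows at or above 0.5 CPM numbered 11 in SOX5 and 6 in SOX6, and windows below 0.1 CPM numbered 44 and 67. The 10 highest windows held 21.7% of the summed CPM of SOX5 and 20.9% of that of SOX6.

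The 3 highest windows of SOX5 were window 144 (86997706 to 87000705, coding exon 11), window 32 (86661706 to 86664705, intronic) and window 155 (87030706 to 87033705, coding exon 14). Window 144 had 0.809, 0.866, 1.02 and 0.957 CPM across Holstein 1 to 4 and 1.26, 1.08, 0.604 and 0.963 CPM in Angus 1 to 4. Window 32 had 0.759, 0.866, 0.908 and 1.18 CPM in Holstein and 0.838, 0.800, 0.974 and 1.02 CPM in Angus. Both breeds overlapped in each of these windows, and every culture was above the median gene window. Window 155 had 0.761 ± 0.204 CPM (SD, n = 8).

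The 3 highest windows of SOX6 were window 113 (36935457 to 36938456, intronic), window 158 (37070457 to 37073456, coding exon 15) and window 107 (36917457 to 36920456, intronic). Window 113 had 0.607, 0.692, 0.492 and 0.647 CPM across Holstein 1 to 4 and 0.628, 0.730, 0.604 and 0.856 CPM in Angus 1 to 4. Window 158 had 0.592 ± 0.252 CPM and window 107 had 0.576 ± 0.215 CPM (SD, n = 8). As in SOX5, the peak of the gene was thus present in all 8 cultures, here within an intron.

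**Figure D3:**
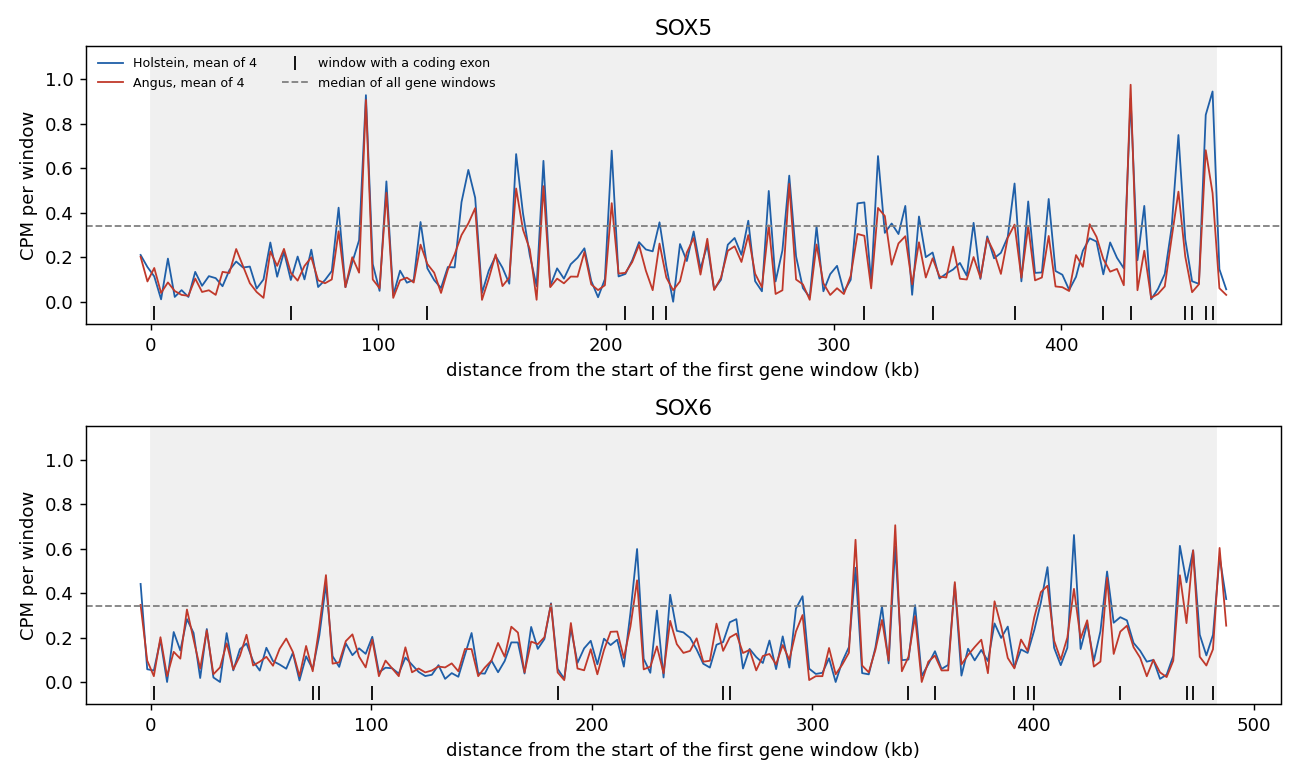
Mean CPM per 3Kb window of 4 Holstein (blue) and 4 Angus (red) cultures along SOX5 (156 windows) and SOX6 (161 windows), against the distance from the start of the first gene window in kb, with the gene shaded, ticks at windows with a coding exon and a dashed line at the median of all gene windows (0.343 CPM). Most windows lie below the line, and the peaks of both breeds fall in the same windows.

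The profiles of the breeds were compared along each long gene. Across windows, the Pearson correlation of the Holstein mean with the Angus mean was 0.916 in SOX5 (156 windows) and 0.902 in SOX6 (161 windows), which is a description only, since CpG density, mappability and the same genome build are shared by the libraries. Between single cultures it ranged from 0.635 to 0.851 in SOX5 and from 0.545 to 0.826 in SOX6.

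Signal was greater in the last 10% of each long gene than in the first 10%, without a steady rise between them. In SOX5 the first 16 windows, 10% of the gene, had 0.0940 CPM per window and the last 15 had 0.309 CPM, higher in 8 of 8 cultures and by 3.29 times in the means. In SOX6 the first 17 windows had 0.125 CPM and the last 16 had 0.204 CPM, higher in 8 of 8 cultures and by 1.63 times. Of the 438 genes with at least 100 windows, 50.9% had a higher level in the last 10% of the gene in 8 of 8 cultures, and the median ratio was 1.25.

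Windows with a coding exon had more signal than intronic windows in both long genes. In SOX5 the 14 windows with a coding exon beyond the first window had 0.327 ± 0.0805 CPM and the 141 intronic windows had 0.188 ± 0.0643 CPM, a ratio of 1.80 ± 0.258 (SD, n = 8) with exon windows higher in 8 of 8 cultures. In SOX6 it was 0.200 ± 0.0649 CPM over 15 windows against 0.154 ± 0.0487 CPM over 145 windows, a ratio of 1.31 ± 0.230, also in 8 of 8 cultures. Among 3922 genes with at least 20 windows, exon windows were higher in 8 of 8 cultures in 49.5%, with a median ratio of 1.21. With medians over windows the ratios were 1.54 in SOX5 and 1.66 in SOX6, so which of them had the larger excess depends on the summary.

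The exon windows of SOX5 were not alike. Those of its first 6 coding exons lay between 0.114 and 0.160 CPM, and 1 of 6 was above the median of the gene. The 9 later exon windows lay between 0.0675 and 0.944 CPM, and 8 of them were above that median. The cut after coding exon 6 was not planned. It falls where the SOX5 values rose, from 0.134 CPM (window of exon 6) to 0.372 CPM (exon 7), so the contrast depends on the cut. In SOX6 the division was less clear, with 4 of 7 windows above the median of the gene for the first 6 coding exons (0.0389 to 0.234 CPM) and 6 of 9 for the later ones (0.0630 to 0.592 CPM).

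The gene windows were set against the 2 windows on each side in the same culture. Genes with less signal than their surroundings in 8 of 8 cultures were SOX7 (0.441 against 0.985 CPM per window, ratio 0.446 ± 0.138, SD, n = 8), SOX6 (0.158 against 0.342 CPM, ratio 0.470 ± 0.0822) and SOX10 (1.42 against 1.73 CPM, ratio 0.818 ± 0.0391). Those of SOX10 downstream are windows of POLR2F, which encodes an RNA polymerase subunit, at 1.82 ± 0.389 and 1.60 ± 0.457 CPM. The SOX10 value includes its windows 3 and 4, which held 7 and 2 reads over the 8 libraries. Without them SOX10 had 0.659 CPM per kb, which for windows of 3Kb is above its flanks in the means. The direction in SOX10 therefore rests on these near-empty windows. Genes with more signal than their surroundings in 8 of 8 cultures were SOX17 (0.277 against 0.152 CPM, ratio 1.94 ± 0.719) and SOX5 (0.200 against 0.119 CPM, ratio 1.97 ± 0.862). SOX8 was lower in 6 of 8 cultures (ratio 0.966 ± 0.0818), SOX4 was lower in 6 of 8, and SOX18 was higher in 5 of 8 (ratio 1.41 ± 0.744). With 5 windows on each side the ratio was 0.804 in SOX5 and 1.24 in SOX8, so the direction in these genes depends on the stretch taken as surroundings.

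Over 24576 genes, 21.7% were lower than their 2 flanking windows per side in 8 of 8 cultures and 38.9% were higher in 8 of 8, with a median ratio of 1.17. SOX7 and SOX17, both of 2 windows and of the same subgroup, lay on opposite sides of their surroundings. SOX7 was flanked by 1.05 ± 0.298 and 0.362 ± 0.232 CPM upstream and by 1.57 ± 0.388 and 0.956 ± 0.264 CPM downstream, while the flanks of SOX17 had 0.0748 to 0.202 CPM.

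The breeds were compared with edgeR's likelihood-ratio test on the counts of all windows where 4 or more cultures reached a CPM of 1, with Benjamini-Hochberg adjustment over all of them. A window was called differentially methylated at FDR < 0.1 and FC ≥ 2. Of the 115360 windows tested, 0.231% were called. Of the 366 SOX windows 21 were tested, 7 of them in genes (3 of SOX8, 3 of SOX10 and the window of SOX18) and 14 in flanks, and 0 were called. At an unadjusted p under 0.05 there was 1 SOX window by the likelihood-ratio test, 1 by edgeR's quasi-likelihood test and 1 by DESeq2, where 4.94, 4.47 and 3.29% of all windows tested had such a p. The breeds separated completely in 0 of the 21 windows. They did so in 1.24% of placed windows with reads, but most of those did not reach the filter. The share over the windows tested is not given here.

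The log2 fold changes (Holstein over Angus) of the 21 windows were small. They ran from -0.48 to 0.23 with a median of 0.08, against -0.0021 over all windows tested. The 95% intervals of all 21 lay inside a 2-fold change either way, with outer bounds of -0.90 and 0.67. For these windows a breed difference of the size of the FC threshold was therefore outside the interval, while smaller differences lay within it.

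The window of SOX18 had the largest difference. It held 11, 36, 36 and 72 reads across Holstein 1 to 4 and 37, 61, 44 and 43 reads across Angus 1 to 4, which is 1.38 ± 0.613 CPM in Holstein and 1.80 ± 0.489 CPM in Angus (SD, n = 4). The ranges overlapped, since Holstein 4 was above Angus 1 and Angus 3. The log2 fold change was -0.48 (SE 0.21), with an unadjusted p of 0.0207 and an FDR of 0.823 by edgeR's likelihood-ratio test. It did not pass the call, and its unadjusted p was not under 0.05 in 3 of the 8 fits that left out 1 culture, namely those without Holstein 1, Angus 2 or Angus 3. With libraries scaled by total counts only, the window had -0.34 (unadjusted p = 0.240 by edgeR's likelihood-ratio test). With the animal number as block it had -0.56 (unadjusted p = 0.00537 by the same test). Without both Holstein 1 and Angus 3 the log2 fold change of the SOX18 window was -0.27.

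The 4 flanking windows of SOX18 had log2 fold changes from -0.03 to 0.17. The SOX18 window over the mean of its 4 flanking windows gave 0.677, 1.10, 0.906 and 1.35 across Holstein 1 to 4 and 0.931, 1.81, 1.49 and 3.02 in Angus 1 to 4 (1.01 ± 0.284 and 1.81 ± 0.882, SD, n = 4). Angus 4 was highest and Holstein 1 lowest, and the breeds overlapped. At the deepest base of the window in each library lay 97 of the 340 reads together (28.5%). The share over all windows is not given here, so 28.5% is not read as unusual, and its part in the difference was not tested.

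**Figure D4:**
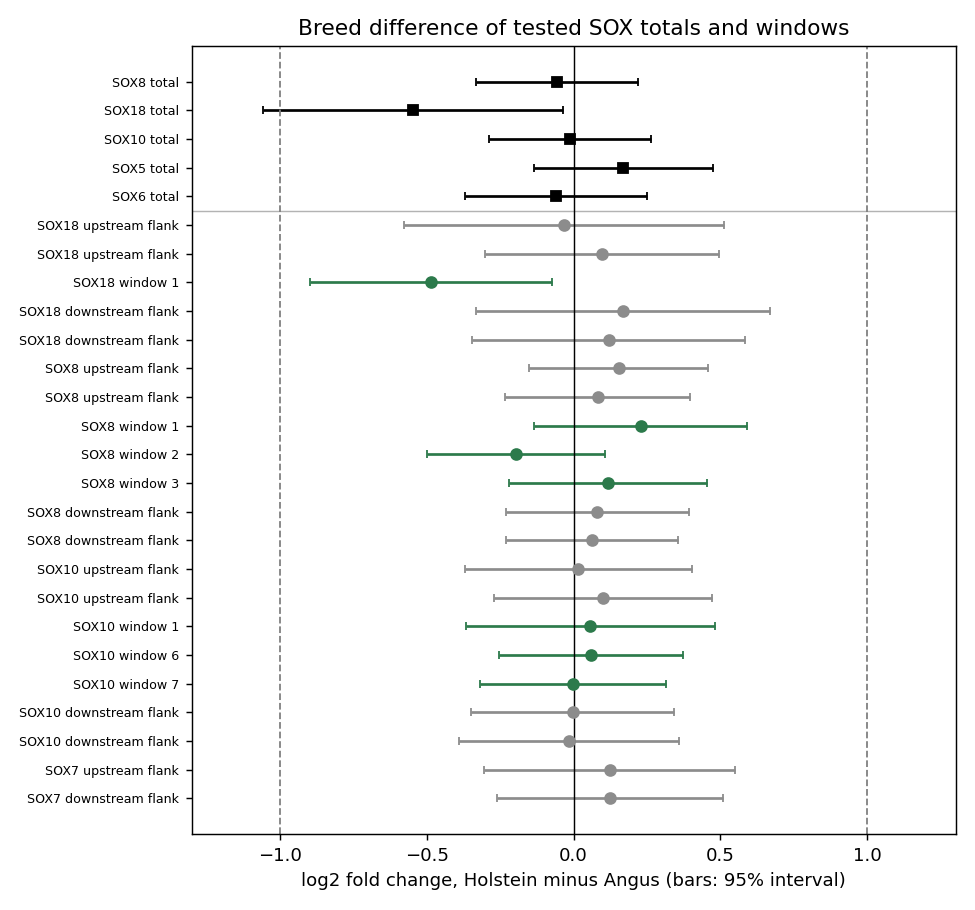
Log2 fold change of Holstein over Angus with 95% intervals by edgeR's likelihood-ratio test, for the totals of 5 SOX genes (squares) and for the 21 tested windows in genes (green) and flanks (grey). Dashed lines mark a 2-fold change, and all windows lie inside it with their intervals, the lowest being SOX18 at -0.48. The SOX18 total and the SOX18 window hold the same reads.

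Summed over their windows, 5 of the 8 genes had enough reads for the same filter among gene totals (19408 genes tested, of which 0.0721% were called), and 0 of the 5 were called. The log2 fold change of Holstein over Angus was 0.17 (SE 0.16, 95% interval -0.14 to 0.47) for SOX5 and -0.06 (SE 0.16, -0.37 to 0.25) for SOX6. It was -0.06 (SE 0.14, -0.33 to 0.22) for SOX8 and -0.01 (SE 0.14, -0.29 to 0.26) for SOX10. SOX18 fills 1 window, so its total holds the same reads as that window and is not a separate observation. The SOX18 total had -0.55 (SE 0.26, -1.06 to -0.04), with an unadjusted p of 0.0355 and an FDR of 1.00 by edgeR. Such an unadjusted p under 0.05 was reached by 1.97% of all genes tested, and for the SOX genes by 1 with the likelihood-ratio test, 0 with the quasi-likelihood test and 1 with DESeq2. The interval of SOX18 was the only one of the 5 that reached beyond a 2-fold change. Without Holstein 1 and Angus 3 the SOX18 total had a log2 fold change of -0.33.

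The signs for SOX6, SOX8 and SOX10 are not fixed by the data, since their intervals included 0 and leaving out single cultures gave log2 fold changes from -0.17 to 0.10, from -0.14 to 0.019 and from -0.10 to 0.065. Scaling libraries by total counts only moved the median of all genes by 0.15, and the values of these genes, then 0.075, 0.085 and 0.13, lay below that median. SOX7, SOX17 and SOX4 entered only a fit with no filter (0.134% of 25466 genes called), in which 0 of the 8 SOX genes were called and 2, SOX18 and SOX7, had an unadjusted p under 0.05 (2.8% of all genes). There SOX7 had a log2 fold change of -0.47 (SE 0.24), SOX17 0.15 (SE 0.29) and SOX4 0.55 (SE 0.69).

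In the SoxD genes no window reached the filter: a CPM of 1 was met in at most 3 cultures in SOX5 and in 0 in SOX6. In a fit without the filter, 0 of the 366 SOX windows were called (0.102% of 887821 windows), and 18 had an unadjusted p under 0.05 (4.55% of all windows). Of these 10 lay in SOX5, 9 of them higher in Holstein, and 6 in SOX6, 1 of them higher in Holstein. The breeds separated completely in 4 of 156 windows of SOX5 (2.56%) and in 1 of 161 windows of SOX6 (0.621%), each higher in Holstein, where 1.01% of placed windows with reads separated in that direction.

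The smallest p in SOX5 was that of its last window (87033706 to 87036705, coding exon 15). It held 13, 18, 27 and 47 reads across Holstein 1 to 4 and 15, 19, 7 and 10 reads across Angus 1 to 4. In CPM this was 0.657, 0.779, 1.02 and 1.32 in Holstein and 0.524, 0.661, 0.235 and 0.535 in Angus, and the highest Angus culture was just above the lowest Holstein culture. The log2 fold change was 0.86 (SE 0.29, FDR = 0.645 by edgeR). In SOX6 the smallest p belonged to window 11, with 7 reads in all, 5 of them in Angus 1 (unadjusted p = 0.00208 and FDR = 0.590 by edgeR), so it rests on 1 library.

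Genes that work with or downstream of the SOX factors were examined as lists of gene totals with the same test. Of the other SOX genes listed, 5 of 10 were held and 2 were tested, and 0 were called in either direction. Of 10 genes of cartilage matrix, such as the collagens that SOX5, SOX6 and SOX9 control, 10 were tested and 0 called, with a median log2 fold change of -0.02. The corresponding numbers were 9 tested and 0 called for targets in neural crest and glia (median 0.02), 8 and 0 for endothelial genes (median 0.04), and 5 and 0 for genes of progenitors and neurons (median 0.0023). Over all 19408 genes the median was -0.0040. Unadjusted p under 0.05 occurred in 0 genes of these lists by edgeR's likelihood-ratio test. Of all genes tested 1.97% had such a p and 0.0721% were called, so 0 in lists this small is not read as a trait of them. The median levels were 0.352 CPM per kb for cartilage, 0.215 for neural crest, 0.248 for endothelial and 0.251 for progenitor and neuronal genes, which were above the levels of SOX4, SOX5, SOX6, SOX7 and SOX17. That of the 5 other SOX genes held was 0.0853 CPM per kb, with values from 0 to 0.929. The 0 belonged to SRY, and all animals were female, so no rank against the members is drawn from this median.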

How the data were processed

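The authors aligned filtered MIRA-Seq reads to UMD v3.1 with NextGENe and deposited raw read counts per 3Kb window without normalization, one table per library, with coverage columns, a deposited signal that is not scaled for depth. The submitters' processing notes name CASAVA 1.7. How duplicates and multiply mapped reads were treated is not given in the sources used here. The counts were used for all tests and the deposited coverage only for the deepest base of a window.

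CPM used the reads in all windows as library size, and a gene total was the sum over windows that carry its symbol. Breeds (groups from the labels) were compared in R 4.3.3 with edgeR 4.0.16 (TMM, generalized linear model likelihood-ratio test, Benjamini-Hochberg adjustment over all features tested, a CPM of 1 or more in 4 or more of the 8 samples, FDR < 0.1 and FC ≥ 2), after the methods of the study. SEs were derived from the log2 fold change and the likelihood-ratio statistic, and 95% intervals are 1.96 SE. Levels, ratios and shares are descriptions without a test, computed in Python 3.11.15 with pandas 2.3.3. As alternatives, DESeq2 1.42.0 and the quasi-likelihood test were run, with other scalings, filters and thresholds, placed chromosomes only, the animal number as block, leaving out samples, and other summaries of the ratios. The test procedure was tested on simulated data.

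The labels share animal numbers 1 to 4 between breeds, but the deviations of same-numbered animals were not correlated in every pair. The members and lists were chosen with earlier results of these data known. Named were every member, its first and its highest window, all windows of genes of at most 3 windows, the 3 highest windows and the window with the smallest p in SOX5 and SOX6, and other genes only where called, apart from POLR2F, named as the gene that the windows beside SOX10 carry. SRY was named as well, for its level of 0. Because no window of SOX5 or SOX6 was tested, the smallest p there was taken from the fit without filter. P-values measure the spread between 4 animals per breed, with 1 library each.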

Additional observations from a re-analysis of the deposited data

Results flagged for a closer look

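The total of SOX8 in Holstein 1 (0.837 CPM per kb) stood apart from the other 3 Holstein cultures, which lay between 1.09 and 1.13 CPM per kb. Its gap to the nearest of these was 0.888 of the range of the group, above Dixon's 95% critical value for 4 samples. It was 1 of 56 groups of 4 examined, and chance flags about 1 in 20. Holstein 1 also had a low median window (0.152 CPM), and its part in this value was not tested.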

How the results depend on the processing

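The count of SOX windows and SOX genes called was 0 under every alternative run, leaving out each sample in turn included. Of the alternatives other than leaving out a sample, 185 values kept their direction and their side of the threshold or moved by less than 1 SD. The level of SOX8 was 1.20 CPM per kb with totals over placed chromosomes, and that of SOX10 was 0.659 without its near-empty windows 3 and 4, a choice made after seeing the data. With medians the ratio of first to other windows was 1.56 in SOX10, 1.08 in SOX5 and 0.354 in SOX6, and the ratio of exon to intron windows was 1.54 in SOX5 and 1.66 in SOX6. With 5 flanking windows per side the ratio of gene to flank was 0.804 in SOX5, 1.24 in SOX8 and 0.925 in SOX10. Scaling by total counts alone gave log2 fold changes of 0.075 for SOX6, 0.085 for SOX8, 0.13 for SOX10 and 0.15 for SOX10 window 7, where that scaling shifts the median. SOX10 window 7 was at 0.025 when all 8 samples had to reach a CPM of 1. It was at 0.030, and SOX10 window 6 at -0.015, without Holstein 1 and Angus 3, a setting also chosen after seeing the data. Leaving out each sample in turn gave -0.17 to 0.10 for SOX6, -0.14 to 0.019 for SOX8, -0.10 to 0.065 for SOX10, -0.062 to 0.099 for its window 7 and -0.050 to 0.097 for its window 1. The cause of these shifts was not tested.

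Over all windows, 267 were called, against 141 by the quasi-likelihood test and by DESeq2, 905 without a filter, 163 with the stricter filter of all 8 samples, 154 on placed chromosomes (53 higher in Holstein, against 45 of the 267), and 145 (without Holstein 4) to 564 (without Holstein 1) with samples left out, or 642 without Holstein 1 and Angus 3. Of gene totals 14 were called, against 0 by the quasi-likelihood test, 6 by DESeq2, 34 without a filter, 22 with total counts alone, 9 with the stricter filter, 8 to 21 with samples left out and 25 without Holstein 1 and Angus 3. The unadjusted p of the SOX18 total was not under 0.05 in 6 of the 8 fits that left out 1 sample. By edgeR's likelihood-ratio test it was 0.308 with total counts alone and 0.00433 with the replicate block. With the animal number as replicate block, 0 SOX windows were called and SOX18 had -0.56 for its window and -0.63 for its total. The correlations of the deviations of same-numbered samples were -0.157, 0.0157, -0.00754 and 0.139. Whether same-numbered samples shared more than a number cannot be told from these values. Depth limits SOX4, SOX17 and single windows of SOX5 and SOX6, many of which held 3 reads or fewer.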
